A study of Rattus norvegicus with 2 samples.

Results

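The genes described here act in mitosis and cytokinesis, the steps by which a cell separates its copied chromosomes and then divides. They are 40 genes given by name. Of these, 37 had at least 1 probe set of their own among the 14217 genes of the array, and where a gene had several, the one with the highest mean log2 signal was used. The expression of Tpx2 and Ncapg is not analysed here, and the probe set of Hmgb2 carries 4 symbols, so that its signals of 2835 and 2758 cannot be assigned to it.

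Expression was measured in natural killer (NK) cells, lymphocytes that kill infected or altered cells, from the spleens of 9 PVG.7b rats aged 8 to 12 weeks. NK cells were enriched by depleting T cells, B cells and macrophages with antibodies, then sorted as CD3-negative and NKR-P1A-positive cells that carried either NKR-P1B, an inhibitory receptor, or Ly49s3, an activating receptor, but not both, at a purity above 90%. Each population was hybridised to 1 array and the labels name no treatment of the rats or cells. With 1 array per population there are no replicates, so the populations could not be tested against each other and all differences describe these 2 arrays alone.

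Mitotic genes are transcribed mainly in the late part of the cell cycle, so in a tissue of resting lymphocytes their transcripts come largely from the minority of cells that are cycling. At mitosis, cyclin-dependent kinase 1 with its cyclins starts chromosome condensation and spindle assembly. The kinetochores then attach chromosomes to the spindle under the watch of a checkpoint, the anaphase-promoting complex releases the sister chromatids, and a contractile ring divides the cell. In resting cells these genes are held down through the CHR promoter element (cell cycle genes homology region) by the DREAM complex, which is known from human and mouse cells.

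Mitotic genes had higher signals in Ly49s3+ cells than in NKR-P1B+ cells. Signals are MAS5 intensities in arbitrary units, and signals under 20.4, the median of all signals, were raised to that floor for each ratio. All 37 genes were above the floor on at least 1 array and 35 on both. Of the 37, 14 passed 1.5-fold toward Ly49s3+ cells and 0 toward NKR-P1B+ cells. Over all 9114 measured genes the shares were 5.72% and 5.06%, against 37.8% of the mitotic genes in the first direction. The 14 became 6 when log2 was taken of the signal plus 32 in place of a floor, 16.2% against 2.49% of all genes, of which 5 were among the 14 and the sixth was Cenpa. Restricted to genes above the floor on each array, it was 13 of 35 against 5.07%. Kif2c and Ect2 passed 2-fold toward Ly49s3+ cells, as did 1.21% of all genes, and 0 passed it the other way, against 1.78% of all genes. By any amount, 33 of the 37 were higher in Ly49s3+ cells, against 52.2% of all genes, and when the arrays were scaled to RNA spikes as described later it was 19 of 37 against 9.65% of all genes. The 4 others were Birc5, Aurka, Kif20a and Cks2. Differences are given as log2 of NKR-P1B+ minus log2 of Ly49s3+, and their median was −0.42 for the mitotic genes and −0.02 for all measured genes. In RNA of whole populations, fewer cycling cells and less mitotic RNA per cell cannot be told apart, nor can a difference between the populations and one between the 2 sorts and arrays.

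**Figure D1:**
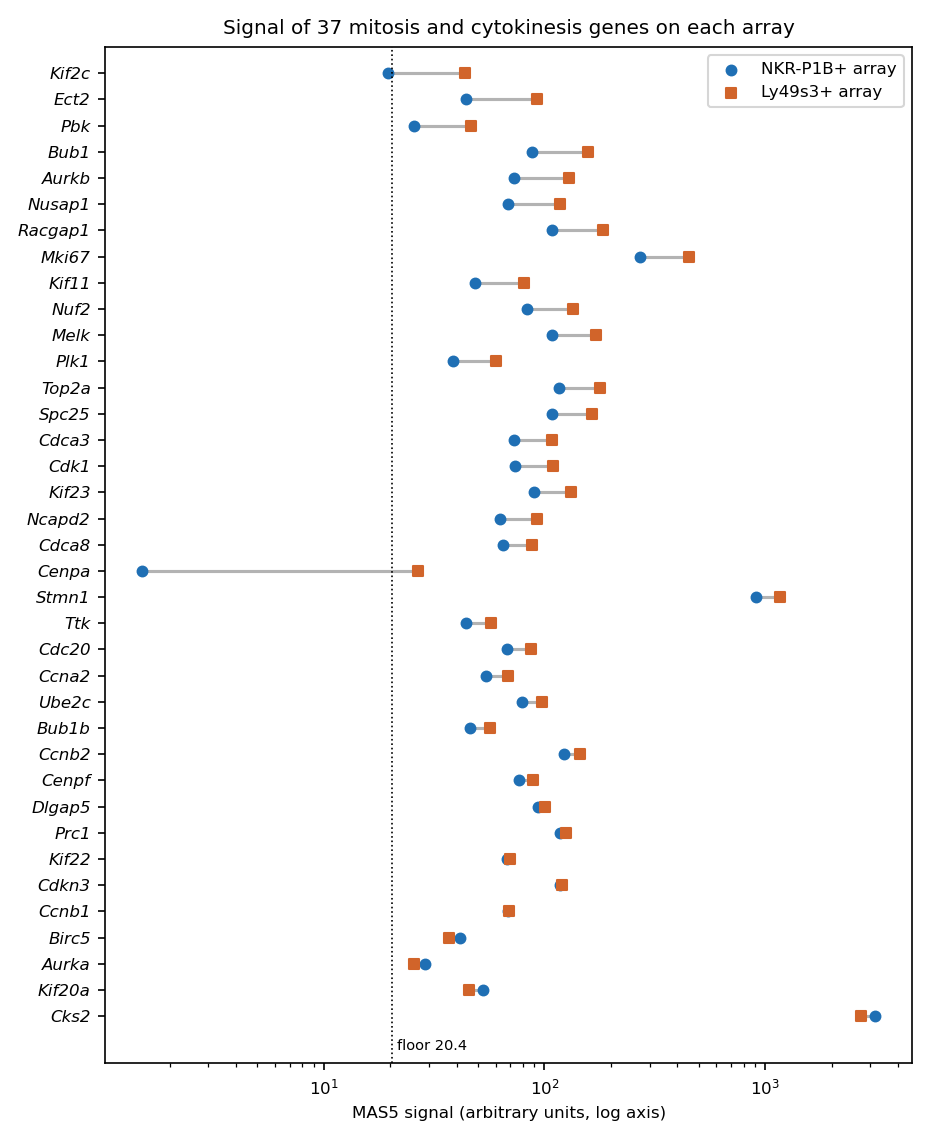
Signal of each of the 37 genes in NKR-P1B+ cells (circles) and Ly49s3+ cells (squares), on a log axis in arbitrary units, ordered by the floored difference. A dotted line marks the floor of 20.4. The square lies to the right of the circle for 33 of 37 genes. Most pairs lie between the floor and a signal of about 160, and levels of different genes are not comparable because each probe set binds differently.

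These differences are relative to the scale on which the arrays were deposited. The poly-A spikes, control RNAs added before labelling, had a mean log2 difference of −0.49 (SD 0.31, 17 probe sets above the floor on both arrays). The hybridisation spikes had a mean of 0.02 (SD 0.10, 18 probe sets). With the arrays scaled to the poly-A spikes, the median of all genes moved to 0.46 and that of the mitotic genes to −0.07. The split of mitotic genes at 1.5-fold then changed from 14 and 0 to 2 and 4, with Kif2c and Ect2 higher in Ly49s3+ cells and Cks2, Kif20a, Aurka and Birc5 in NKR-P1B+ cells. This scaling adds nearly the same amount to each difference between signals above the floor, and less where 1 signal is floored, as for Cenpa (−0.38 to −0.14). The amount is too little to turn the direction of a gene past 1.5-fold. Of all genes 1.17% and 32.9% passed 1.5-fold in these directions. The mitotic median minus that of all genes was −0.41 on the deposited scale and −0.52 with this scaling. That gap widened through Cenpa, which moved past Cdca8 (−0.42 to 0.07), the gene at the deposited median. On both scales 32 of the 37 genes lay below the median of all genes. The direction of genes with small differences depended on the scale.

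**Figure D2:**
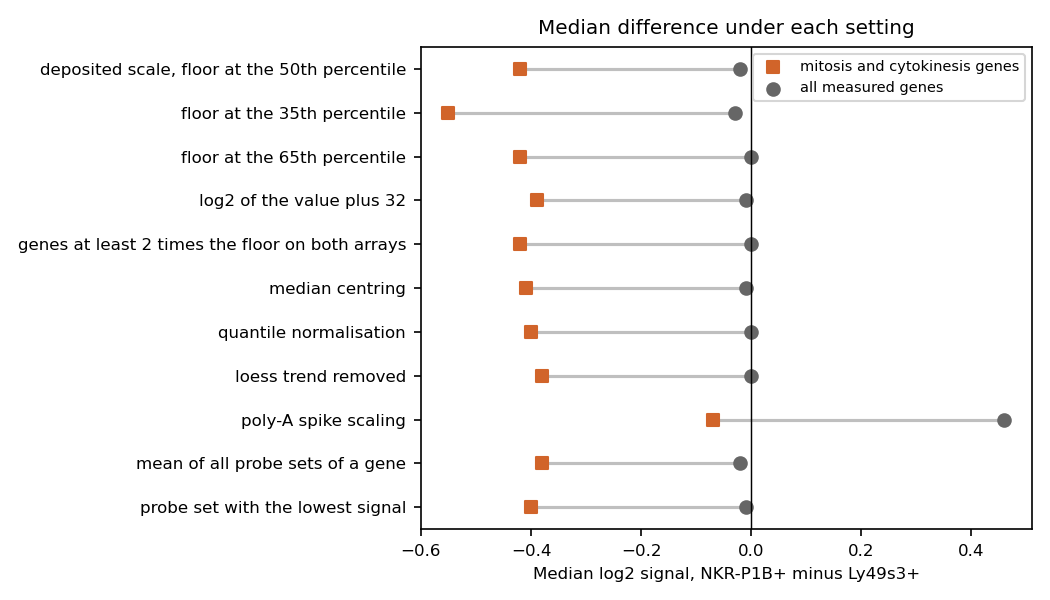
Median log2 difference, NKR-P1B+ minus Ly49s3+, of the mitosis and cytokinesis genes (squares) and of all measured genes (circles) under the deposited scale and 10 other settings. The mitotic median runs from −0.55 to −0.07 and lies below that of all genes in each of the 11 rows. With poly-A spike scaling the median of all genes moves to 0.46 and the mitotic median to −0.07. The mitotic median minus that of all genes is then −0.52, against −0.41 on the deposited scale. The wider gap comes from the floored gene Cenpa, which passes the gene at the deposited median.

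Most of these transcripts were dim, with 34 of 37 genes at a mean signal under 160, where array noise is larger. Precision was described by genes with a pair of probe sets in the same signal range, as the SD of the disagreement between them, scaled to a single probe set. This spread was 0.37 on the log2 scale from the floor to a signal of 40, 0.34 from 40 to 80, 0.28 from 80 to 160, 0.17 in the range from 320 that holds Mki67 and Stmn1, and 0.11 in the brightest range, that of Cks2. Variation between rats, between sorts and between arrays is not part of it. Of the 37 genes, 17 differed by more than 2 times the spread of their range, each toward Ly49s3+ cells, against 7.07% of all genes in that direction and 7.22% in the other. Within the range from 80 to 160, 8 of 17 mitotic genes were past 1.5-fold toward Ly49s3+ cells, against 5.57% of all 1759 genes there. From 40 to 80 it was 3 of 12 against 9.53% of 1437, and below 40 it was 2 of 5 against 11.3% of 1759. No mitotic gene lay from 160 to 320, where 3.16% of all genes passed. Of Mki67 and Stmn1, in the next range, 1 passed against 1.60% of all genes, and Cks2 did not, against 0.442% in the brightest range.

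The promoters of these genes were examined for elements that mitotic promoters are known to share in human and mouse cells. RefSeq windows of the GRCr8 assembly, from 250 bases before to 50 after the gene start, were matched by symbol for 34 of the 40 genes. The windows of the 6 genes with a window, a signal above the floor on each array and the largest differences are printed here, because they show how the elements are arranged in the genes that stood furthest apart. Each is written 5′ to 3′ on the strand of the gene, with CHR elements (TTTGAA or TTCGAA) and CCAAT boxes (CCAAT, the site of the factor NF-Y) on either strand (read there as CCAAT reversed and complemented, ATTGG) in capitals; E2F matches are not marked.
Ect2 (chr2:111966577-111966876, minus strand): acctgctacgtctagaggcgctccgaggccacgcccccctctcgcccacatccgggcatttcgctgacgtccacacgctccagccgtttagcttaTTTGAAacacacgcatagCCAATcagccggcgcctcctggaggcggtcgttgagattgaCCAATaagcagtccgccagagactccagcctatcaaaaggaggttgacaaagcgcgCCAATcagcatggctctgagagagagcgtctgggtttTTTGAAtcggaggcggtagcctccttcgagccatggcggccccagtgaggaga
Bub1 (chr3:135504872-135505171, minus strand): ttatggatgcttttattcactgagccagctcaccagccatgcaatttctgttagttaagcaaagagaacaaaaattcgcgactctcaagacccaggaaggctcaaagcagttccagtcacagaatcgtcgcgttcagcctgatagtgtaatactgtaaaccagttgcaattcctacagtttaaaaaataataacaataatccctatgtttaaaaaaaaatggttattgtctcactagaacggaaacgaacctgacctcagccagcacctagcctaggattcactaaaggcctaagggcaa
Nusap1 (chr3:127057045-127057344, plus strand): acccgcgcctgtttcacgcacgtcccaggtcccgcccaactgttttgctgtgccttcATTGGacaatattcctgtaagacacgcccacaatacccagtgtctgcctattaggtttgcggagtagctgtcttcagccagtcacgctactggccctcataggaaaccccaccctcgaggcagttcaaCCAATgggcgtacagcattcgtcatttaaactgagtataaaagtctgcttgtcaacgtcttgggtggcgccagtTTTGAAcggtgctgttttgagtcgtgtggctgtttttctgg
Kif11 (chr1:244536617-244536916, plus strand): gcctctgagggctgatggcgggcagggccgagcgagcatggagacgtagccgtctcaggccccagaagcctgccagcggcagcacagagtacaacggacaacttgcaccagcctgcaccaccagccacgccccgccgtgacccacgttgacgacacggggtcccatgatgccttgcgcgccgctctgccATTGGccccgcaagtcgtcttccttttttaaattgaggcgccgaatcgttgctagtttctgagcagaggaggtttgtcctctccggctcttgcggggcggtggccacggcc
Mki67 (chr1:199952544-199952843, minus strand): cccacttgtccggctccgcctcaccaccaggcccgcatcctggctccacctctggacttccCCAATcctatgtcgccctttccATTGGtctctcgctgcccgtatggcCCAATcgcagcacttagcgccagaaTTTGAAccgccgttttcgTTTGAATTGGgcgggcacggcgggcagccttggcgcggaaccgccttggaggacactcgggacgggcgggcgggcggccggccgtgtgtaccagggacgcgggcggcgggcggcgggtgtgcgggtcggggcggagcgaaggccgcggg
Nuf2 (chr13:84255549-84255848, minus strand): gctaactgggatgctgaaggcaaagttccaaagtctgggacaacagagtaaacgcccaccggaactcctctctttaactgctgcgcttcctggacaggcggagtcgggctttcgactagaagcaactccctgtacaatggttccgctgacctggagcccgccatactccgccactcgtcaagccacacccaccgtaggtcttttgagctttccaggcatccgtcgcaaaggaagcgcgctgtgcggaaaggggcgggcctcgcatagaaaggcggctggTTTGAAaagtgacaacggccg
The Ect2 window held 2 CHR elements, at −155 and −3 relative to the start, and 3 CCAAT boxes. That of Mki67 held 2 CHR elements and 4 CCAAT boxes, and the last CHR and the last CCAAT box shared 1 base in the run TTTGAATTGG. Nusap1 had 2 CCAAT boxes upstream and 1 CHR element 10 bases after the start, and Nuf2 had 1 CHR element 30 bases after it and no CCAAT box. Kif11 held 1 CCAAT box and no CHR letters, and Bub1 held neither. No match says only that these letters are not in this window.

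CHR letters were found in 24 of the 34 mitotic genes with a window (70.6%), in 21.0% of all 27457 genes of the table and in 14.4% of the 7720 measured genes with a window. CCAAT boxes were in 82.4%, 39.6% and 39.7% of these. Both elements occurred together in 22 of 34 mitotic genes (64.7%) and in 6.14% of measured genes. Within the mitotic genes, 23 of 31 distinct CHR matches lay between 100 bases before the start and 50 bases after it. E2F sites (TTCCCGC or TTGGCGC, either strand) were in 6 of 34 mitotic genes (17.6%) and 13.4% of measured genes, but in 29 of 49 DNA replication genes (59.2%), of which 22.4% held CHR letters. An E2F match overlapped a CCAAT box in 1 mitotic gene, and a CHR element overlapped one in 2. The 2 sets of mitotic genes split by their difference between the arrays held CHR letters in 7 of 11 (63.6%, past 1.5-fold toward Ly49s3+ cells) and 15 of 21 (71.4%, within 1.5-fold). CCAAT boxes were in 7 of 11 and 19 of 21 of them. The difference between these shares was not tested.

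**Figure D3:**
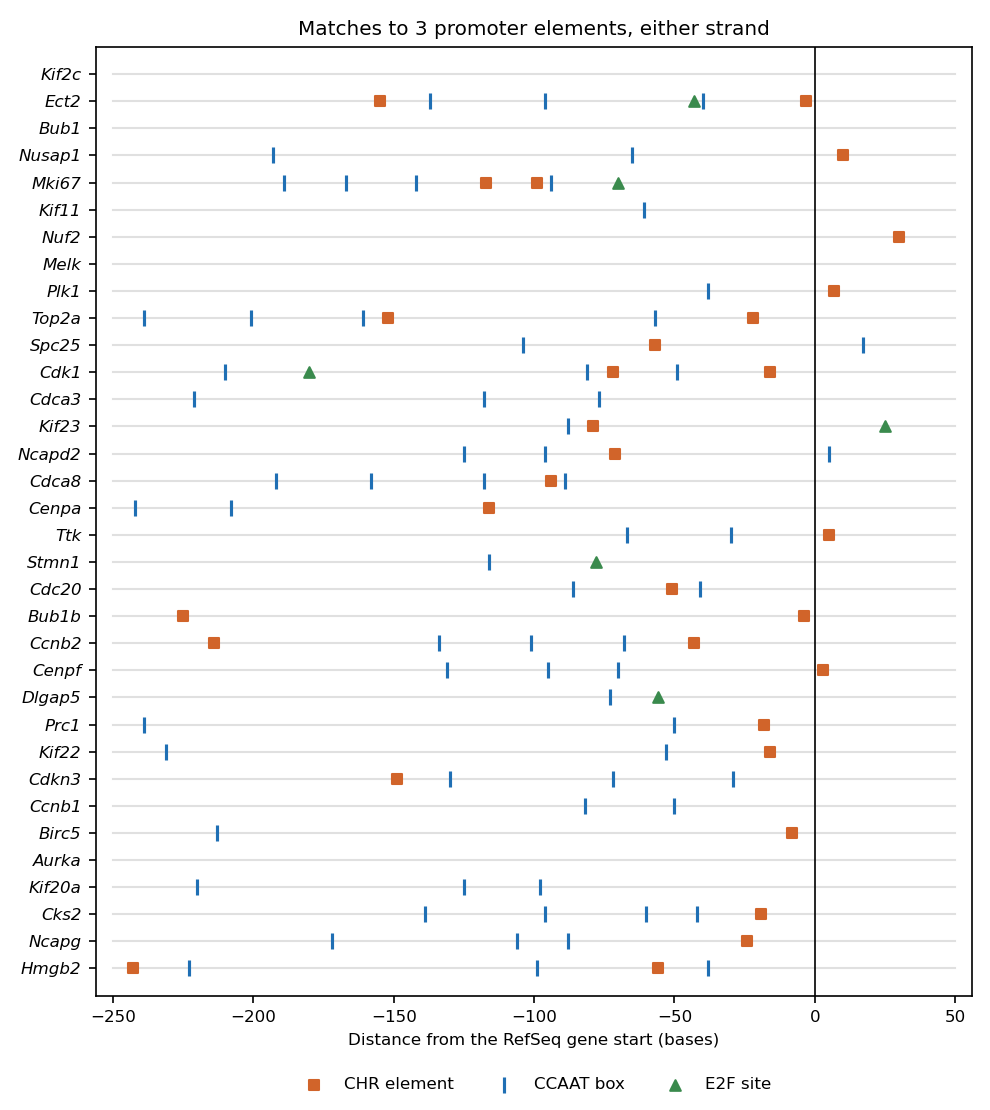
Positions of CHR elements (squares), CCAAT boxes (bars) and E2F sites (triangles), on either strand, against the distance in bases from the RefSeq gene start for the 34 mitotic genes with a window, 1 window per gene. Genes run from the largest difference toward Ly49s3+ cells at the top to those higher in NKR-P1B+ cells, with Ncapg and Hmgb2, which have no difference of their own, at the bottom. Most CHR squares lie within 100 bases of the start, with CCAAT bars upstream of them.

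Of the 9 groups of genes by role, the pair of cytokinesis signalling genes had the largest median difference on the deposited scale and with poly-A spike scaling. Ect2, which activates the GTPase RhoA to build the contractile ring, had 44.1 in NKR-P1B+ cells and 92.9 in Ly49s3+ cells, the order in which all pairs of signals are given from here, and was 2.11-fold higher in the latter. Racgap1 and Kif23 form centralspindlin, the complex that brings Ect2 to the middle of the spindle. Racgap1 had 108 and 185, 1.72-fold higher in Ly49s3+ cells, and Kif23 had 89.7 and 132, 1.47-fold higher. All 3 partners of this step were higher on the same array, as were 33 of the 37 genes and 52.2% of all genes. The log2 differences of the 3 were −1.07, −0.78 and −0.56, and −0.59, −0.29 and −0.07 with poly-A spike scaling. With the mean of all probe sets, Racgap1 was at −0.39 and Kif23 at −0.28, since the other probe set of each was under the floor. For Ect2 and Racgap1 together the median was −0.93, and −0.44 with poly-A spike scaling. Prc1, which bundles the microtubules on which centralspindlin gathers, had 117 and 125, a log2 difference of −0.10 that is smaller than the spread between probe sets of 0.28.

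Of the 5 kinesin motors, 4 were higher in Ly49s3+ cells on the deposited scale and 3 with poly-A spike scaling. The shares of all genes were 52.2% and 9.65%. On the deposited scale 2 passed 1.5-fold that way, against 5.72% of all genes, and 0 the other way, against 5.06%. Kif2c, which depolymerises microtubules at the centromere to correct wrong attachments, had 19.6 in NKR-P1B+ cells, below the floor, and 43.6 in Ly49s3+ cells, at least 2.14-fold higher. Kif11, the motor that pushes the spindle poles apart, had 48.6 and 80.7, 1.66-fold higher in Ly49s3+ cells. A dimmer probe set of Kif11, with 25.4 and 47.5, was 1.87-fold higher in the same direction. Kif22, which pushes chromosome arms to the spindle equator, had 67.6 and 69.5, and Kif20a, needed for cytokinesis, had 52.7 and 45.4. The last was nominally higher in NKR-P1B+ cells, by 0.22 on the log2 scale against a spread of 0.34. The median of the 5 kinesins was −0.56, and −0.07 with poly-A spike scaling. With the dimmest probe set of each gene, Kif2c and Kif23 were below the floor and the other 3 had a median of −0.04.

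Kinetochore and checkpoint genes were higher in Ly49s3+ cells in 7 of 7 cases on the deposited scale and in 4 of 7 with poly-A spike scaling, with medians of −0.38 and −0.11. Of all genes 52.2% and 9.65% were higher there on these scales. On the deposited scale 3 of the 7 passed 1.5-fold, against 5.72% of all genes. The median of −0.38 was the value of Cenpa, floored on 1 array, and in 9 other settings the median ran from −0.60 to −0.32. Bub1, a checkpoint kinase that also marks centromeres for cohesion, had 87.4 and 158, 1.81-fold higher in Ly49s3+ cells. Its relative Bub1b, the checkpoint protein BubR1, had 45.9 and 56.6, a log2 difference of −0.30 against a spread of 0.34. Nuf2 and Spc25 are subunits of the NDC80 complex, which grips the spindle microtubules. Nuf2 had 83.1 and 135, and Spc25 had 108 and 164, 1.63-fold and 1.52-fold higher in Ly49s3+ cells. A further subunit, Spc24, which was listed among other mitotic genes, had 84.5 and 170.4, 2.02-fold higher. The checkpoint kinase gene Ttk had 44.1 and 57.0, and Cenpf, a large protein of the outer kinetochore, had 76.8 and 88.6. Cenpa, the histone H3 variant that marks centromeres, had 1.5 and 26.6, so that its at least 1.30-fold difference rests on a signal just above the floor on 1 array.

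Of the 4 mitotic kinases grouped here, Pbk, Melk and Plk1 were past 1.5-fold toward Ly49s3+ cells on the deposited scale, against 5.72% of all genes. Pbk, a MAP kinase kinase-like enzyme active in mitosis, had 25.6 and 46.6, 1.82-fold higher. Melk, a kinase of cycling cells, had 108 and 172, 1.59-fold higher. Plk1, which drives mitotic entry, spindle assembly and cytokinesis, had 38.5 and 60.3, 1.57-fold higher. Aurka, which acts at the spindle poles, ran the other way at 28.8 and 25.7, a log2 difference of 0.16 that is under the spread of 0.37. The median of these 4 was −0.66, and −0.17 with poly-A spike scaling.

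The chromosomal passenger complex, which carries Aurkb to centromeres and then to the midzone, was not uniform. Aurkb, its kinase, had 73.0 and 129.7, 1.78-fold higher in Ly49s3+ cells. Cdca8, which encodes the subunit borealin, had 65.2 and 87.4, 1.34-fold higher. Birc5, which encodes survivin, had 41.3 and 37.1, nominally higher in NKR-P1B+ cells by 0.15 on the log2 scale against a spread of 0.37. The 3 subunits had a median of −0.42, which became 0.07 with poly-A spike scaling.

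**Figure D4:**
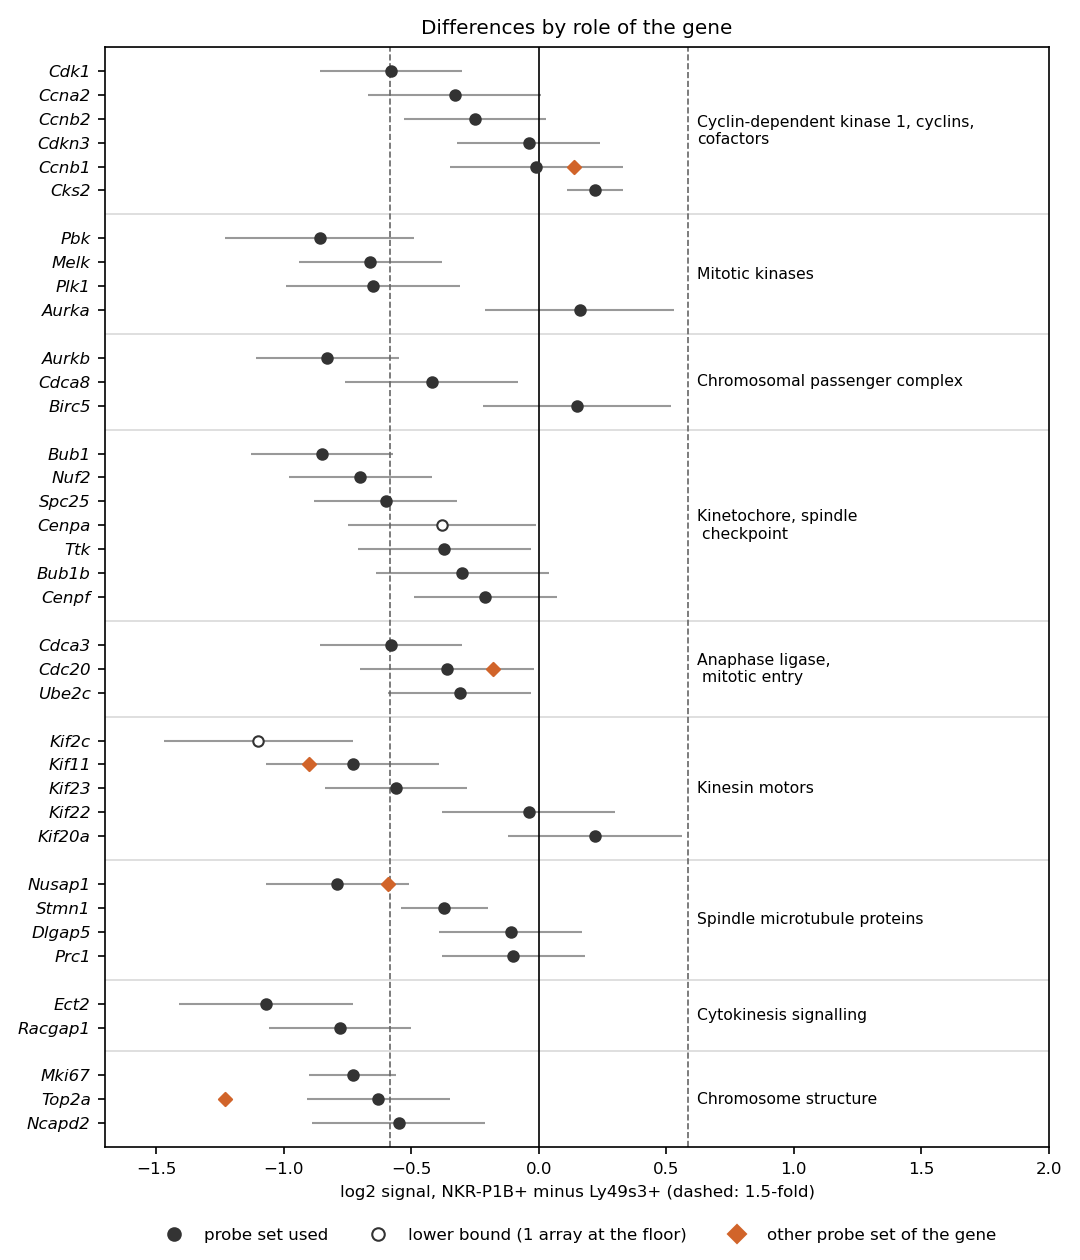
Log2 difference, NKR-P1B+ minus Ly49s3+, of each of the 37 genes on the deposited scale, grouped by role. Circles are the probe set used (open where 1 array was at the floor and the difference is a lower bound), diamonds are other probe sets above the floor on both arrays, and grey bars are the SD between probe sets of a gene at like signal, which is not an error between replicates. Dashed lines mark 1.5-fold, passed by 14 genes toward Ly49s3+ cells and by 0 toward NKR-P1B+ cells on this scale, or 2 and 4 with poly-A spike scaling. Of all genes 5.72% and 5.06% passed it on this scale, and 1.17% and 32.9% with poly-A spike scaling.

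Cyclin-dependent kinase 1 and its partners were within 1.5-fold in 6 of 6 cases on the deposited scale, as were 8132 of all 9114 measured genes. The median of the 6 was −0.14, and 0.34 with poly-A spike scaling, where Cks2 passed 1.5-fold toward NKR-P1B+ cells. Cdk1, the kinase that triggers mitosis, had 73.2 and 109, 1.49-fold higher in Ly49s3+ cells. Its partner Ccna2, cyclin A2, had 54.3 and 68.2, and Ccnb2, cyclin B2, had 122 and 145. Ccnb1, cyclin B1, had 68.4 and 68.8, and 56.7 and 51.6 on its other probe set. Cdkn3, a phosphatase of cyclin-dependent kinases, had 117 and 120.4. Cks2, a small docking protein of these kinases, was bright at 3157 and 2717 and lay 0.22 higher in NKR-P1B+ cells on the log2 scale, against a spread of 0.11 in its range. The probe sets of Ccnb1 differed in sign, and neither difference exceeded the spread of 0.34.

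Genes of the anaphase ubiquitin ligase and of mitotic entry were higher in Ly49s3+ cells in 3 of 3 cases on the deposited scale and in 1 of 3 with poly-A spike scaling. The shares of all genes higher there were 52.2% and 9.65%. Cdc20, the activator of the anaphase-promoting complex, had 67.8 and 86.9, 1.28-fold higher in Ly49s3+ cells. Its next brightest probe set gave 39.6 and 44.9, and its 3 remaining ones stayed under the floor. Ube2c, the ubiquitin-conjugating enzyme of that complex, had 79.1 and 97.8. Cdca3, which promotes the destruction of the inhibitor Wee1, had 72.7 and 108, 1.49-fold higher. The median of these 3 was −0.36, and 0.13 with poly-A spike scaling.

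Among spindle microtubule proteins, Nusap1, which binds and stabilises microtubules near chromosomes, had 68.1 and 118, 1.73-fold higher in Ly49s3+ cells. Its other probe set, with 33.9 and 51.0, had a log2 difference of −0.59. Stmn1, which encodes stathmin, a tubulin-binding protein that lymphocytes also express in activation, had 905 and 1166, 1.29-fold higher. Dlgap5, a spindle protein activated by Aurka, had 93.4 and 101. The 4 measured genes, Prc1 included, had a median of −0.24, and 0.25 with poly-A spike scaling.

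The 3 measured chromosome structure genes were higher in Ly49s3+ cells on the deposited scale and with poly-A spike scaling, with medians of −0.63 and −0.14. On these scales 52.2% and 9.65% of all genes were higher there. Mki67, the Ki-67 antigen that coats mitotic chromosomes and is widely used to mark cycling cells, had 270.3 and 449.5. It was 1.66-fold higher in Ly49s3+ cells, 4.42 times the spread between probe sets in its signal range, the largest such ratio among the 37 genes. Top2a, the topoisomerase that disentangles sister chromatids, had 116 and 179, 1.55-fold higher, and its other probe set, with 46.9 and 109.9, was 2.34-fold higher. Ncapd2, a subunit of condensin, had 62.9 and 92.4, 1.47-fold higher.

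Across the 37 genes, 9 had more than 1 probe set, with 12 further probe sets in all. Of these 12, 7 were under the floor throughout. Of the other 5, 4 were higher in Ly49s3+ cells, those of Cdc20, Kif11, Nusap1 and Top2a, and that of Ccnb1 was not.

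Genes of neighbouring cell cycle steps were compared from lists chosen by function, with earlier results of these data known. Of 72 other measured mitotic genes, 18 were past 1.5-fold toward Ly49s3+ cells and 1 toward NKR-P1B+ cells, against 5.72% and 5.06% of all genes. Their median was −0.40 and turned to 0.07 with poly-A spike scaling. Espl1, the separase that cuts cohesin, had 20.8 and 41.9, 2.01-fold higher in Ly49s3+ cells. Knl1, a kinetochore scaffold, had 20.5 and 38.5, and Kif18a, a motor that limits microtubule length, had 27.2 and 49.4. Of those above the floor on 1 array, the centromere genes Cenpi (14.6 and 35.5) and Cenpt (16.7 and 35.5) were each at least 1.74-fold higher in Ly49s3+ cells. The exception was Cdc27, a subunit of the anaphase-promoting complex found in resting cells too, with 40 and 22.2, 1.80-fold higher in NKR-P1B+ cells.

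DNA replication genes, which act in the preceding S phase, had a median of −0.38 over 49 measured genes, and 0.10 with poly-A spike scaling. Of these, 13 were past 1.5-fold toward Ly49s3+ cells and 0 toward NKR-P1B+ cells, against 5.72% and 5.06% of all genes. Pola1, the catalytic subunit of DNA polymerase alpha, had 98.9 and 209, and Mcm10, a replication initiation factor, had 26.9 and 56.8, both 2.11-fold higher. Exo1, a repair exonuclease, had 21.9 and 44.2, and Timeless, which protects replication forks, had 42.4 and 81.8. The genes that start the cycle had a median of −0.18 over 12 measured genes, 0.31 with poly-A spike scaling and −0.37 with the dimmest probe set of each gene. Among these 12 genes, 2 passed 1.5-fold toward Ly49s3+ cells, against 5.72% of all genes. E2f1 (39.7 and 73.7) and E2f8 (26 and 51.6), which encode E2F factors, were 1.86-fold and 1.98-fold higher there. The 21 measured inhibitors and quiescence genes had a median of 0.03, and 0.52 with poly-A spike scaling. Of these 21, 2 passed 1.5-fold, both higher in Ly49s3+ cells, against 5.72% of all genes, and a count this small does not set the list apart. The 2 genes were Pkmyt1, a kinase that restrains Cdk1 (27.3 and 46.6), and Lin52, a subunit shared by DREAM and the activating complex of mitotic genes (77.7 and 120.5). Whether these lists differ from each other was not tested, since each array is a single sample.

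**Figure D5:**
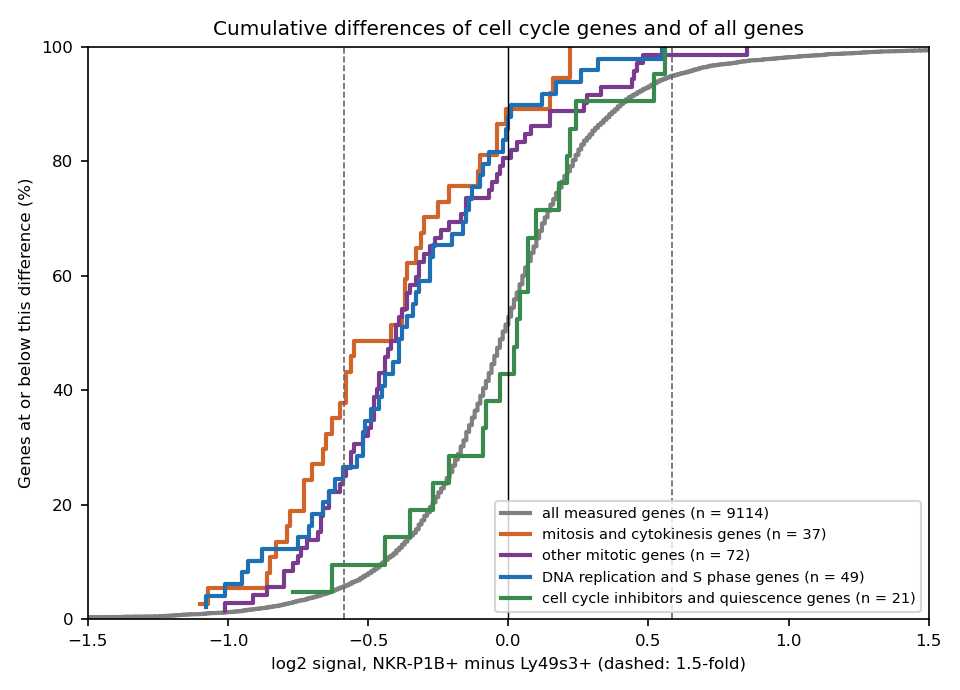
Cumulative share of genes, in percent, at or below each log2 difference, NKR-P1B+ minus Ly49s3+, for all 9114 measured genes and for 4 cell cycle lists on the deposited scale. The curves of mitotic and replication genes lie to the left of all genes, with medians of −0.42, −0.40 and −0.38, while that of the inhibitors, with a median of 0.03, follows it. With poly-A spike scaling all genes shift to a median of 0.46 and the 3 medians become −0.07, 0.07 and 0.10.

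The sorted receptor and markers of other cells were read beside these results. Klrb1b, which encodes NKR-P1B, had 1399 and 29.4, 47.6-fold higher in NKR-P1B+ cells. Of 11 NK cell markers on the array all were measured, among them Klrb1a (3740.2 and 3813) and Prf1, which encodes perforin (4024 and 3006), and their summed signal was 22917 and 20053. Erythroid precursors, which also divide in rat spleen, had a summed marker signal of 917 and 951, with 5 of 10 markers measured. Tfrc was the largest part of this sum. Of the 5 measured, 4 were higher in Ly49s3+ cells. Hemgn had 50.6 and 131, Epor 15.5 and 35.8, Tfrc 537 and 589, Slc4a1 9.90 and 21.7, and Hbb 276 and 153. The erythroid genes Klf1, Gata1, Ahsp, Rhag and Alas2 were below the floor in each population. Neutrophil and mast cell markers summed to 86.3 and 187, with 2 of 8 measured. These were Mcpt10 (51.5 and 148) and Cpa3 (10 and 21.0). Scaled to the poly-A spikes, the erythroid sum in Ly49s3+ cells was 678 and thus the lower one, and the neutrophil and mast cell sum was 133. The part of these markers in the mitotic signal was not tested.

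The summed markers of T, B, plasma, macrophage, dendritic and platelet lineages were higher in NKR-P1B+ cells, opposite to the mitotic genes on the deposited scale. Single T cell, dendritic cell and platelet markers ran the other way. T cell markers summed to 2588 and 1127, with 6 of 9 measured, of which Cd8a (2151 and 767), which rat NK cells also express, made up most. Cd6 had 273 and 179, and Cd5 had 92.7 and 40.8. Of the 6 measured, 3 were higher in Ly49s3+ cells, Cd3g (22.3 and 42.9), Cd28 (30.6 and 36.0) and Cd4 (3.30 and 20.6). Cd3e and Cd3d were below the floor in each population. B cell markers summed to 218 and 132 (3 of 7 measured), with Cd22 at 103 and 52.9 and Fcrla at 56.8 and 43.3. Plasma cell markers summed to 1057 and 916 (5 of 6), with Xbp1 at 460.0 and 455 and Prdm1 at 377 and 353. The other measured ones differed more, Jchain at 98.1 and 33.4, Sdc1 at 67.5 and 43.6 and Mzb1 at 36.0 and 14.1. Macrophage markers summed to 442 and 233 (2 of 10, Lyz2 at 356 and 133 and Itgam at 29.9 and 27.0), and dendritic cell markers to 2489 and 1921 (3 of 5). Of the latter, Itgax, also an NK cell gene, had 2281 and 1716, Cd74 had 197 and 120.0, and Batf3 had 4.20 and 83.2. Platelet markers summed to 326 and 138 (3 of 6). Of these, Itgb3 was 4.39-fold higher in NKR-P1B+ cells with 57.0 in Ly49s3+ cells, Pf4 had 30.9 and 26.6, and Treml1 had 15.9 and 30.4. Stromal markers summed to 77.3 and 85.8, or 61.2 for the latter with poly-A spike scaling (1 of 7, Vwf at 23.9 and 30.9). No marker gene on the array was listed at 0, and the part of these markers in the mitotic signal was likewise not tested.

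As signs of RNA quality, the 3′ to 5′ signal ratio was 11.9 and 13.2 for the beta-actin control and 2.84 and 2.77 for Gapdh, and its part in the results was not tested.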

How the data were processed

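The authors hybridised biotinylated cRNA, made from 3 ug of total RNA, to an Affymetrix rat expression array, 1 array per population, per the labels' protocols. The sources used here do not say how material from the 9 rats was pooled. The authors deposited linear intensity values, made with MAS5 according to the submitters' processing notes, which give neither version nor scaling target. Trimmed by 2% at either end, the mean was 100.04 for each array, and medians were 19.6 (NKR-P1B+) and 21.3 (Ly49s3+). The values are thus linear, uncentred and scaled to a common mean, with the scaling factors unknown. The number of arrays limits the precision.

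Of 31099 probe sets, 20826 carried 1 symbol, 436 several and 9780 none in the platform annotation, controls left out, and those with several were not assigned to a gene. The RefSeq table of GRCr8 held the gene numbers of 20758 probe sets and changed 0 symbols. Values were floored at 20.4, the 50th percentile of non-control values, and converted to log2 with Python 3.11.15 and pandas 2.3.3. A gene was measured if above the floor on at least 1 array. A ratio with a floored value is a lower bound. No p-value was computed, since 1 array per population leaves no residual degrees of freedom.

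The 40 genes and the lists were chosen with earlier results of these data known. The text names all 40, from each other cell cycle list up to 4 genes per direction at least 1.5-fold apart and above the floor on both arrays and up to 2 above it on 1 array, and the 2 brightest of each marker list. Further marker genes and Klrb1b were named after their values were seen. Other settings were floors at the 35th and 65th percentiles, log2 of the value plus 32, a filter at 2 times the floor, median centring, quantile normalisation, a loess trend with a span of 0.3, poly-A spike scaling, and other probe sets per gene.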

Additional observations from a re-analysis of the deposited data

How the results depend on the processing

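No paired analysis was possible because each population has 1 array. The mitotic median of −0.42 lay between −0.42 and −0.38 in the other settings except for −0.55 with the 35th percentile as floor and −0.07 with poly-A spike scaling. In both of these settings Cenpa, at −1.47 and −0.14, moved past the gene at the deposited median. The count of mitotic genes past 1.5-fold toward Ly49s3+ cells, 14 (37.8%, against 5.72% of all genes), was 6 with log2 of the value plus 32 (16.2% against 2.49%), 2 with poly-A spike scaling (5.41% against 1.17%) and 2 at 2-fold (5.41% against 1.21%). In the other settings it was from 11 to 15, for example 11 with the higher floor (35.5% against 3.46%) and 15 with the lower one (40.5% against 9.75%). Toward NKR-P1B+ cells 0 of 37, against 5.06% of all genes, became 4 of 37 with poly-A spike scaling, against 32.9% of all genes. That scaling moves all genes together and also turned the medians of other mitotic genes to 0.07, replication genes to 0.10 and G1 and E2F genes to 0.31, and moved that of the inhibitors to 0.52. Adding 32 shrinks differences of dim genes above the floor by construction, though not that of Cenpa, which went from −0.38 to −0.81 without the floor, and gave medians of −0.28 for other mitotic and for replication genes. The mean of all probe sets gave −0.33 for both and −0.28 for G1 and E2F genes, and the dimmest probe set −0.37 for the latter. Toward Ly49s3+ cells 18 of 72 other mitotic genes passed 1.5-fold, against 5.72% of all genes. With the floor at the 65th percentile this was 7 of 48 (against 3.46%), and with the filter at 2 times the floor 9 of 47 (against 3.54%). The added 32 gave 3 of 72 (against 2.49%) and the mean of probe sets 11 of 72 (against 4.27%). With spike scaling it was 0 of 73 (against 1.17%). For replication genes 13 of 49 became 8 of 49 with the added 32 and 2 of 47 with spike scaling, against the same shares of all genes. For G1 and E2F genes 2 of 12 became 0 of 8, and for inhibitors 2 of 21 became 1 of 19, with the higher floor or the filter. With the added 32 or spike scaling they became 0 of 12 and 0 of 21, each against the share of all genes given for that setting. Fewer genes are tested with the higher floor and the filter, and other causes were not tested. Of 353 recomputed differences of single mitotic genes, 307 moved by less than the spread between probe sets and 46 by more. Many of the 307 could not move, since a gene with a single probe set is unchanged by the choice of probe set and a bright gene by the floor. With poly-A spike scaling the difference of each gene but Cenpa moved by more than its spread. Low signal limits the dim genes, and 1 array per population limits all.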
